A study of Homo sapiens with 15 samples.

Results

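Expression of 10 circadian clock genes was followed through fat cell differentiation and later exposure to tumour cell medium. They were CLOCK, PER2, PER3, CRY1, CRY2, NR1D1, NR1D2, BHLHE40, DBP and TEF. The 10 were chosen by name, with earlier results of these data known, so that their counts are descriptions. Each had 1 probe set on the array, and all 10 were among the 17687 genes measured. The cells were ASC52htert, human adipose mesenchymal stem cells immortalised with telomerase, so that 1 cell line stands behind every value. All cells were seeded in MesenPRO RS, and 5 arrays were made from cells that were not differentiated (MSC). A further 5 arrays came from cells taken, from 3 days after seeding, through 14 days in StemPRO adipogenesis medium and then 7 days in control medium, RPMI with 10% FBS (MA, labelled mature adipocytes). The last 5 arrays came from such adipocytes kept for 7 days instead in medium that MDA-MB-231 breast carcinoma cells had conditioned (DED, labelled dedifferentiated adipocytes). The labels do not give the later medium or the harvest day of MSC, and their effect cannot be told apart from that of differentiation. The labels do not state separate cultures behind the 5 arrays of a group, so the p-values speak of the spread between arrays, which may be technical. In bulk RNA, fewer cells of a type and less RNA per cell cannot be told apart.

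The clock of mammalian cells is a feedback loop of transcription factors. CLOCK pairs with BMAL1 (or its relative NPAS2 takes its place) and activates genes that carry E-box sequences, among them the PER and CRY genes, whose proteins return to the nucleus and block the pair. A second loop runs through NR1D1 and NR1D2 (REV-ERB alpha and beta), which are E-box targets and repress BMAL1 and NFIL3 through sites that the ROR receptors use to activate them. BHLHE40 and BHLHE41 (DEC1 and DEC2) compete for E-boxes, while DBP and TEF are activators of D-box genes, where NFIL3 represses. In adipose tissue the loop is known for daily rhythms of lipid storage and release, and NR1D1 is also known as a factor of adipocyte differentiation. Transcripts of these genes cycle over the day in cells whose clocks run together. The labels also leave out the hour of harvest and the time since the last medium change, so a change in mean level and a change in the phase of such cycling cannot be told apart.

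The sequences through which this loop is known to act are shown for some of the members whose transcripts fell in MA against MSC. They are also shown for CIART, which fell, and for NFIL3, which rose. They are from RefSeq (GRCh38.p14), written 5′ to 3′ on the strand of the gene, and capitals mark the motif found in 250 bases before to 50 bases after an annotated start; all 10 members had at least 1 such window, 15 windows in all. The E-box CACGTG is the site of the CLOCK and BMAL1 pair, and it lay once in the window of BHLHE40 (chr3:4979187-4979216, plus strand), once in each TEF window (the upstream one is shown, chr22:41367240-41367289, plus strand) and at 2 places before the downstream start of NR1D2 (chr3:23945956-23945981 and chr3:23946006-23946031, plus strand). It lay at 3 places before the start of CIART (chr1:150282414-150282513, plus strand), a repressor of the pair that is described with the other clock genes.
BHLHE40 E-box: tccaaCACGTGagactcatgtgatgaagcc
TEF E-box: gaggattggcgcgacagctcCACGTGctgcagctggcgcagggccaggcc
NR1D2 E-box a: cgggcggggaCACGTGaggccgctcg
NR1D2 E-box b: gccgcagggaCACGTGggggcggggg
CIART E-boxes: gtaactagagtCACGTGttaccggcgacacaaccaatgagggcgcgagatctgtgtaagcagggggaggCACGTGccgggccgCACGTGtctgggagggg

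The variant E′-box CACGTT, read on both strands (AACGTG on the other), lay before the starts of PER2 (chr2:238288792-238288817), NR1D1 (chr17:40100730-40100779) and CRY1 (chr12:107093610-107093659), all on the minus strand. PER3 held D-boxes of the forms TTATGTAA and TTATATAA (chr1:7784106-7784170, plus strand). Of the site of the REV-ERB and ROR receptors only a core was searched, TAGGTCA or TGGGTCA on both strands, without the bases beside it. This core, called the receptor site here, lay just before a start of NFIL3 (chr9:91423833-91423860, minus strand), where it appears as the reverse complement TGACCTA.
PER2 E′-box: cgcgcgcggtCACGTTttccactatg
NR1D1 E′-box: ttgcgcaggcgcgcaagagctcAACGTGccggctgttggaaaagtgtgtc
CRY1 E′-box: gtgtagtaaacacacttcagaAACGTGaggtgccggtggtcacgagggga
PER3 D-boxes: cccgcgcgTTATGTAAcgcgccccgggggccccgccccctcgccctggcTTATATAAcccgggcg
NFIL3 receptor site: gtagcgcggcgctcggaacTGACCTAct

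The E-box was in 4 of the 15 member windows and in 7.26% of all 35116 windows of the same length, and the E′-box in 5 of 15 and 5.34%. The D-box, searched as TTATGTAA, TTACGTAA, TTATATAA or TTACATAA, was in 3 of 15 and 1.43%, and the receptor site in 3 of 15 and 5.69%. These motifs do not overlap each other by their letters, except that the forms TTATGTAA and TTACATAA are reverse complements of each other. Matches not printed were an E′-box and a receptor site each in CLOCK and CRY2, a D-box and a receptor site in NR1D2, a D-box in PER2 and, outside the members, a receptor site in BMAL1 and E-boxes in PER1, BHLHE41 and CIPC. DBP held none of the 4 motifs in its window. A match describes letters in a window and says nothing of a factor bound there.

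Markers were checked against the labels. Of 8 adipocyte markers 8 rose in MA against MSC (limma, adjusted p under 0.05), and 7 fell in DED against MA; all 8 were higher in DED than in MSC. Their mean over the list ran from 5.56 to 5.76 in MSC, from 12.33 to 12.48 in MA and from 9.96 to 11.25 in DED (log2 intensity), with DED array 1 at 11.25 and the other DED arrays at 9.96 to 10.29. Of 7 mesenchymal stem cell markers 4 fell (THY1, ENG, DPP4 and PI16) and PDGFRA rose in MA against MSC. In DED against MA THY1 and ENG rose and NT5E fell, while DPP4 (6.92 ± 0.33 in MA, 6.70 ± 0.81 in DED) and PI16 (5.03 ± 0.16 and 5.08 ± 0.17) did not pass the test, and 5 of the 7 were lower in DED than in MSC. The stem cell list had an array mean of 12.40 to 12.78 in MSC, 11.36 to 11.65 in MA and 11.42 to 11.80 in DED. All 6 epithelial and all 4 endothelial markers were below 8.31, the 95th percentile over negative control probe sets, in every group, as were 4 of 5 macrophage markers in MSC and MA and 5 of 5 in DED. The MA and DED means of DPP4 and PI16 were below 8.31 too, so that a change in these genes between MA and DED could be hidden by background. The macrophage list had an array mean of 6.41 to 6.63 in MSC, 6.57 to 6.68 in MA and 6.54 to 6.78 in DED, and in DED against MA CD14 rose and CD68 fell. Over all genes the least correlated arrays within a group had r = 0.9923 for MSC, 0.9918 for MA and 0.9816 for DED.

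In MA against MSC, 8 of the 10 clock transcripts were lower. BHLHE40, NR1D2, PER3, NR1D1, PER2, TEF, CLOCK and CRY1 fell, by between 3.73 and 0.79 on the log2 scale, and 0 members rose, while CRY2 and DBP did not pass the test. Over all genes 17.6% fell and 15.4% rose by the same rule (limma, Benjamini-Hochberg over 17687 genes, adjusted p under 0.05), 33% together. The median log2 difference was -1.58 over the members and -0.002 over all genes. For 6 members the fall was 2-fold or more, where 5.17% of all genes fell as far. Of these 6 only BHLHE40 had an MA mean above 8.31, the background mark, so that the sizes of the other falls are not settled. The arrays of MSC and MA did not overlap for 7 members, and for 27% of all genes.

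**Figure D1:**
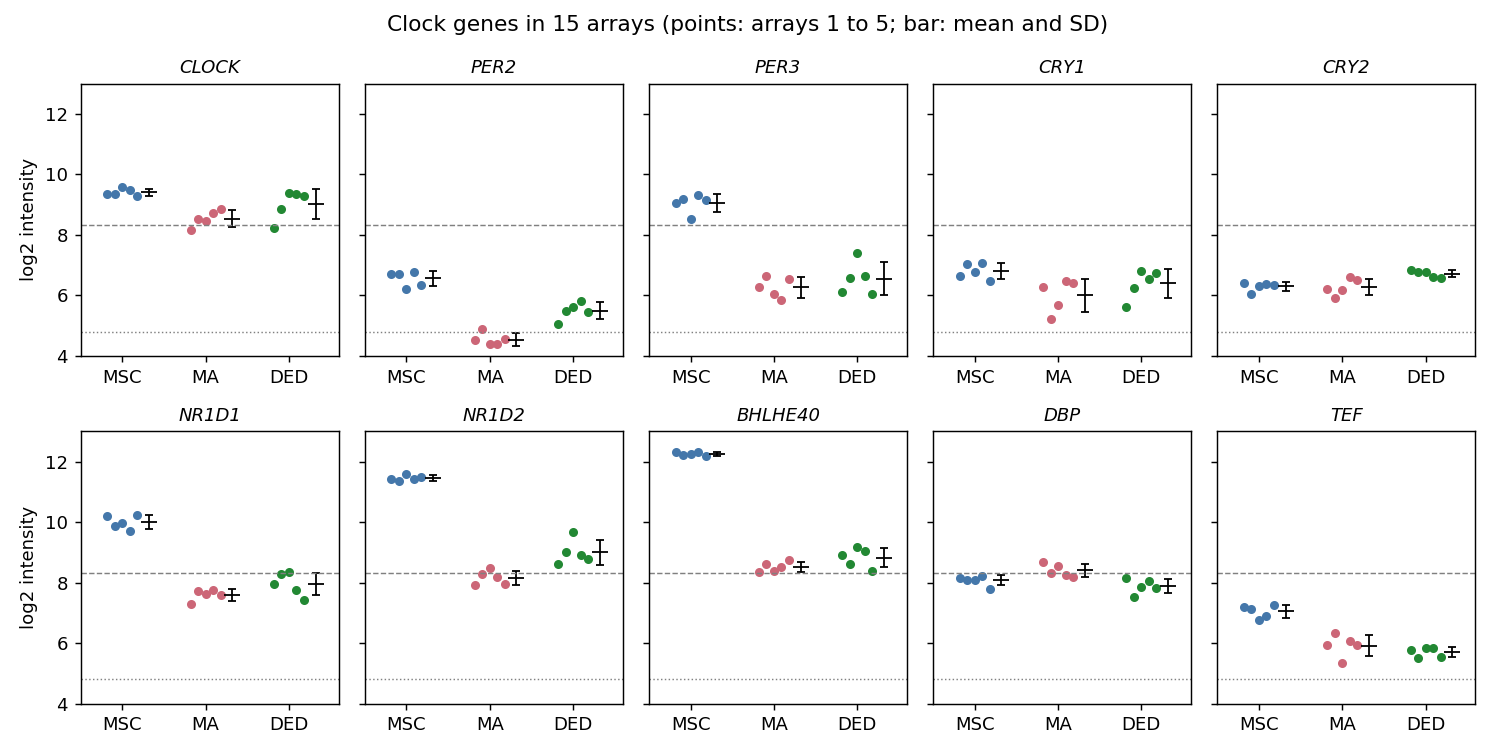
Log2 intensity of the 10 clock genes (vertical axis, the same for all panels) in the 5 arrays each of MSC, MA and DED (points, arrays 1 to 5 from left to right), with mean and SD beside them. The dashed line is the 95th percentile (8.31) and the dotted line the median (4.80) of negative controls; BHLHE40, NR1D1, NR1D2, PER2, PER3 and TEF are higher in all MSC arrays than in any MA or DED array.

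CLOCK (chr4:55427903-55546909 in GRCh38.p14, as are the gene positions of the other members), the DNA-binding partner of BMAL1, was at 9.36, 9.35, 9.59, 9.47 and 9.29 in MSC arrays 1 to 5, and at 8.15, 8.51, 8.46, 8.73 and 8.86 in MA. All MA arrays lay under all MSC arrays, and the mean fell from 9.41 ± 0.12 to 8.54 ± 0.27 (SD, n = 5), by -0.87 on the log2 scale (SE 0.19, limma adjusted p = 0.000906) or 1.83-fold. In DED it was at 8.23, 8.84, 9.37, 9.36 and 9.30. Array 1 was within the MA range, array 2 was just under the highest MA array, and arrays 3 to 5 lay among the MSC arrays. The mean of 9.02 ± 0.49 did not differ from MA past the test (0.48, 95% interval 0.09 to 0.87, limma adjusted p = 0.0665) or from MSC (-0.39, adjusted p = 0.119). Without DED array 1 the difference from MA was 0.68 (adjusted p = 0.00154), and without MA array 5 it was 0.56 (adjusted p = 0.0451).

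PER2 and PER3 encode period proteins, the repressors that build up over the cycle. PER3 (chr1:7784291-7845177) was at 9.07, 9.20, 8.54, 9.32 and 9.15 in MSC and at 6.27, 6.65, 6.03, 5.84 and 6.53 in MA. Every MA array was more than 1 log2 unit under the lowest MSC array, and the difference was -2.79 (SE 0.22, limma adjusted p = 2.85e-09). In DED it was at 6.12, 6.59, 7.39, 6.65 and 6.03, with array 3 above all MA arrays and the others within their range. The MA and DED means of PER3 were under 8.31, the background mark. The mean of 6.56 ± 0.54 against 6.26 ± 0.34 gave a difference of 0.29 (95% interval -0.17 to 0.75, limma adjusted p = 0.386), and DED differed from MSC by -2.50 (SE 0.22, adjusted p = 1.3e-08).

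PER2 (chr2:238244044-238300065) was at 6.72, 6.72, 6.22, 6.79 and 6.36 in MSC and at 4.51, 4.88, 4.39, 4.38 and 4.55 in MA. The MA mean of 4.54 ± 0.20 was lower than the negative controls' median (4.80), and all 3 group means were lower than their 95th percentile, so that a signal in MA cannot be told apart from background. The log2 difference was -2.02 (SE 0.15, limma adjusted p = 1.13e-09). In DED it was at 5.06, 5.47, 5.62, 5.83 and 5.46, above every MA array and under every MSC array. It rose from MA (fitted difference 0.95, SE 0.15, limma adjusted p = 6.22e-05), by an amount that these signals do not settle, and was lower than MSC (-1.07, SE 0.15, adjusted p = 7.58e-06).

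CRY1 and CRY2 encode cryptochromes, the partners of the PER proteins and the stronger repressors of the loop. CRY1 (chr12:106991364-107093549) ran from 6.46 to 7.08 in MSC, from 5.21 to 6.47 in MA and from 5.63 to 6.82 in DED, all under 8.31. The MSC and MA ranges overlapped only at MSC array 5 and MA array 4, and the difference of -0.79 passed the test (SE 0.24, limma adjusted p = 0.014). DED did not differ from MA past the test (0.39, 95% interval -0.11 to 0.89, adjusted p = 0.272). CRY2 (chr11:45847118-45883244) was at 6.41, 6.06, 6.30, 6.38 and 6.33 in MSC, at 6.20, 5.92, 6.17, 6.61 and 6.50 in MA and at 6.85, 6.79, 6.79, 6.61 and 6.58 in DED. MSC and MA lay among each other (-0.02, 95% interval -0.28 to 0.25, limma adjusted p = 0.945). Every DED array lay above every MSC array, and only DED array 5 lay under the highest MA array, which DED array 4 equalled. CRY2 rose in DED by 0.44 from MA (SE 0.13, limma adjusted p = 0.0125) and by 0.43 from MSC (adjusted p = 0.0121), and was the only member higher in DED than in MSC. Without DED arrays 1 and 3 together these adjusted p-values were 0.0715 and 0.0708. The mean of CRY2 was under 8.31, the background mark, in every group, so that the size of its rise is not settled.

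NR1D1 and NR1D2 encode the heme-binding REV-ERB repressors. NR1D2 (chr3:23945286-23980617) was at 11.43, 11.35, 11.59, 11.42 and 11.50 in MSC, and at 7.91, 8.29, 8.48, 8.18 and 7.96 in MA. Those ranges lay far apart, with the MA mean of 8.16 ± 0.24 under 8.31, and the difference was -3.29 (SE 0.16, limma adjusted p = 2.19e-12). DED arrays 1 to 5 were at 8.60, 9.01, 9.68, 8.92 and 8.79, each array above every MA array, with array 3 highest. It rose by 0.84 from MA (SE 0.16, limma adjusted p = 0.000532) and remained below MSC (-2.46, SE 0.16, adjusted p = 1.6e-10).

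NR1D1 (chr17:40092793-40100589) was at 10.19, 9.86, 9.96, 9.70 and 10.25 in MSC, and at 7.28, 7.73, 7.64, 7.77 and 7.59 in MA. The difference was -2.39 (SE 0.16, limma adjusted p = 2.68e-10), with the MA and DED means under 8.31, the 95th percentile of negative controls. DED arrays 1 to 5 were at 7.97, 8.28, 8.34, 7.77 and 7.44, with arrays 1 to 3 above every MA array, array 4 level with the highest MA array and array 5 among the MA arrays. The difference from MA was 0.36 (95% interval 0.02 to 0.695, limma adjusted p = 0.117; 0.0227 without DED array 5), and that from MSC was -2.03 (SE 0.16, adjusted p = 2.64e-09). NR1D1 and the thyroid hormone receptor gene THRA overlap at their ends on chromosome 17, on opposite strands. THRA moved the other way, from 10.72 ± 0.12 in MSC to 11.31 ± 0.12 in MA (0.59, SE 0.10, limma adjusted p = 0.000107), and fell to 10.77 ± 0.11 in DED (-0.54, adjusted p = 0.000423).

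BHLHE40 (chr3:4979437-4985323), a repressor that binds the same E-boxes as CLOCK and is also induced by many stimuli outside the clock, had the largest change of the members. It was at 12.32, 12.21, 12.24, 12.32 and 12.20 in MSC, and at 8.36, 8.61, 8.37, 8.53 and 8.75 in MA. The arrays of each group lay close together, and the difference was -3.73 (SE 0.135, limma adjusted p = 2.2e-14), or 13.3-fold. In DED, BHLHE40 was at 8.92, 8.60, 9.19, 9.03 and 8.40, with 3 arrays above every MA array and 2 among them. DED differed from MA by 0.30 (95% interval 0.02 to 0.585, limma adjusted p = 0.11; 0.0223 without DED array 5) and was 10.8-fold lower than MSC (-3.43, SE 0.135, adjusted p = 4.54e-14).

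DBP and TEF encode activators of the PAR bZIP family that carry the rhythm to output genes. TEF (chr22:41367455-41399326) was at 7.21, 7.12, 6.77, 6.91 and 7.26 in MSC, at 5.95, 6.32, 5.34, 6.06 and 5.93 in MA and at 5.77, 5.51, 5.84, 5.85 and 5.53 in DED. All MSC arrays were higher than all others (MA against MSC -1.13, SE 0.15, limma adjusted p = 5.78e-06; DED against MSC -1.35, adjusted p = 5.01e-07), and DED lay within the MA range (-0.22, 95% interval -0.54 to 0.10, adjusted p = 0.343). All 3 means of TEF lay under 8.31, the background mark.

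DBP (chr19:48630030-48637379) took another course, with means near the background mark of 8.31 in all groups. It was at 8.15, 8.10, 8.09, 8.23 and 7.80 in MSC, at 8.68, 8.33, 8.55, 8.26 and 8.19 in MA, and at 8.14, 7.54, 7.84, 8.06 and 7.82 in DED. MA had the highest mean, 8.40 ± 0.21, against 8.07 ± 0.16 in MSC (0.33, 95% interval 0.05 to 0.60, limma adjusted p = 0.063; 0.0419 without MA array 5 and 0.0478 without DED array 2). Every DED array lay under every MA array, and DBP fell to 7.88 ± 0.23 (-0.52, SE 0.13, limma adjusted p = 0.00505), the only member that fell in DED against MA. DED and MSC did not differ past the test (-0.19, 95% interval -0.47 to 0.08, adjusted p = 0.294).

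In DED against MA, PER2, NR1D2 and CRY2 rose, DBP fell and 6 members did not pass the test. The 4 of 10 members that changed stand beside 25.9% of all genes, the 3 that rose beside 12.9% and the 1 that fell beside 13% (limma, adjusted p under 0.05). The median log2 difference was 0.37 over the members and 0.02 over all genes. None of the 4 changed by 2-fold or more, where 6.28% of all genes did. The arrays of NR1D2, PER2 and DBP did not overlap between DED and MA, as was the case for 18.1% of all genes.

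The last comparison set DED against MSC. BHLHE40, PER3, NR1D2, NR1D1, TEF and PER2 were lower in DED and CRY2 was higher, 7 of 10 members beside 33.4% of all genes, and the 6 that were lower beside 16.4%. All 6 were lower by 2-fold or more, where 5.67% of all genes were. Of the 6 only BHLHE40 and NR1D2 had DED means above 8.31, the background mark, so that the sizes of the other differences are not settled. Arrays did not overlap for these 6 and CRY2, and for 25.1% of all genes. CLOCK, CRY1 and DBP did not pass the test. The median log2 difference was -1.21 over the members and 0.03 over all genes. The comparisons share groups of arrays, so a member's differences in the 3 are not independent of each other.

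**Figure D2:**
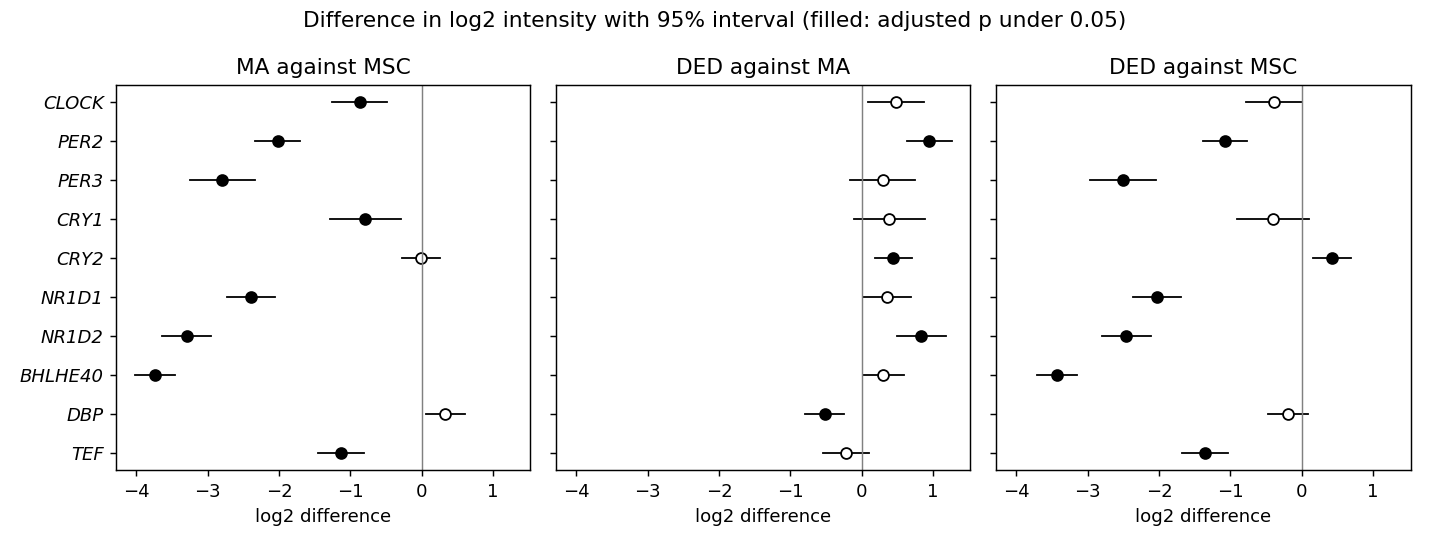
Log2 difference of each clock gene (horizontal axis) in 3 comparisons, with 95% intervals from the limma fit; filled points passed the test (adjusted p under 0.05). In MA against MSC 8 points lie to the left of 0 and are filled, and in DED against MA only PER2, NR1D2, CRY2 and DBP are filled.

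The arrays of DED were the least alike in these genes. The median SD of the 10 members was 0.35 in DED, 0.25 in MA and 0.185 in MSC, and that of all genes was 0.22, 0.20 and 0.19. DED array 3 was the highest DED array in 6 members and the lowest in 0, and DED arrays 1 and 5 were each lowest in 4. The mean of the members was 7.13, 7.29, 7.69, 7.46 and 7.21 in DED arrays 1 to 5, against 6.91 to 7.13 in MA and 8.61 to 8.76 in MSC. DED array 1 also had the highest mean of adipocyte markers, and whether that bears on the clock genes was not tested.

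Log2 ratios between close relatives among the members differed between MSC and MA. The log2 ratio within each array was compared for 4 pairs in 3 comparisons by a two-sided exact permutation test, adjusted over the 12 tests; with 5 against 5 arrays the smallest p is 0.00794. A ratio does not compare the amounts of 2 transcripts. The MA means of 7 of the 8 genes (all but DBP) were under 8.31, so that unequal change and a floor at background cannot be told apart in these ratios. NR1D1 minus NR1D2 rose from -1.47 ± 0.22 in MSC to -0.56 ± 0.19 in MA (difference 0.90, SE 0.13, exact permutation adjusted p = 0.0159). PER2 minus PER3 rose from -2.49 ± 0.19 to -1.72 ± 0.19 (0.77, SE 0.12, exact adjusted p = 0.0159), with PER2 in MA under 4.80. CRY1 minus CRY2 went from 0.51 ± 0.35 to -0.27 ± 0.32 (-0.77, SE 0.21, exact adjusted p = 0.0159), and DBP minus TEF from 1.02 ± 0.32 to 2.48 ± 0.49 (1.46, SE 0.26, exact adjusted p = 0.0159). For these 4 ratios no MSC array overlapped an MA array.

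In DED against MA none of the 4 ratios passed (exact adjusted p from 0.0595 to 0.913). PER2 minus PER3 was higher by 0.65 (SE 0.22, exact adjusted p = 0.0595; 0.0136 without DED array 3) and NR1D1 minus NR1D2 went from -0.56 ± 0.19 in MA to -1.04 ± 0.34 in DED (difference -0.48, SE 0.17, exact adjusted p = 0.0635; 0.0408 without DED array 1). Between DED and MSC, PER2 minus PER3 (1.43) and DBP minus TEF (1.16) differed with no overlap (exact adjusted p = 0.0159 each). CRY1 minus CRY2 was lower by a difference of -0.83 (SE 0.30, exact adjusted p = 0.0272), a call that was lost without DED array 1 or without MSC array 2, 3 or 4 (0.0544 to 0.0595).

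**Figure D3:**
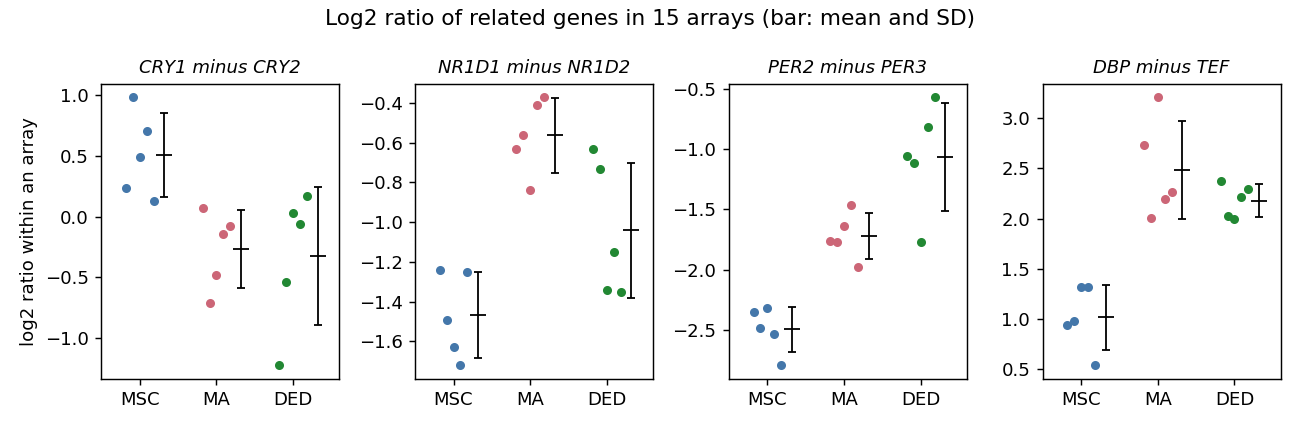
Log2 ratio of 4 pairs of related clock genes within each array (vertical axes, with a scale of their own in each panel) for 5 arrays each of MSC, MA and DED, with mean and SD. All MSC arrays are apart from all MA arrays in each panel, while DED and MA overlap in each panel.

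The rest of the clock's transcription factors moved in both directions. Of 12 further genes listed, 10 were measured; 3 rose (BMAL1, RORA and NFIL3) and 3 fell (BMAL2, BHLHE41 and CIART) in MA against MSC, with a median log2 difference of -0.09, beside 33% of all genes called in either direction. BMAL1, the partner of CLOCK, was at 8.02, 7.75, 7.95, 8.11 and 7.98 in MSC, at 9.29, 9.37, 9.69, 9.34 and 9.44 in MA and at 9.43, 9.47, 9.88, 9.42 and 9.50 in DED. It rose by 1.46 in MA against MSC (SE 0.12, limma adjusted p = 3.2e-09), where CLOCK fell, and DED did not differ from MA past the test (0.11, adjusted p = 0.541). The MSC mean of BMAL1, 7.96, was under 8.31, the background mark, so that the size of its rise is not settled. NFIL3, the repressor of D-box genes, was at 9.71 ± 0.11 in MSC, 12.83 ± 0.13 in MA and 13.08 ± 0.12 in DED, a rise of 3.13 in MA (SE 0.10, limma adjusted p = 5.69e-15). MA and DED had lower NR1D1 and NR1D2 and higher BMAL1 and NFIL3 than MSC. From MA to DED NR1D2 rose, while BMAL1 and NFIL3 (0.24, limma adjusted p = 0.0938) did not pass the test. Whether these differences are linked was not tested.

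CIART, a repressor of the CLOCK and BMAL1 pair, had the largest fitted fall of the list. It ran from 10.14 to 10.76 in MSC and from 6.34 to 6.79 in MA (-4.05, SE 0.28, limma adjusted p = 3.64e-10). In DED it was spread from 4.73 in array 1 to 7.03 in array 3, with no difference from MA past the test (-0.65, adjusted p = 0.0985; -0.95 and 0.00257 without DED array 3, -0.37 and 0.277 without DED array 1), and both means lay under 8.31. BHLHE41, the relative of BHLHE40, fell in 2 steps, from 10.60 ± 0.26 in MSC to 9.37 ± 0.20 in MA (-1.24, SE 0.18, limma adjusted p = 1.91e-05) and to 7.81 ± 0.47 in DED (-1.55, SE 0.18, adjusted p = 1.87e-06). BMAL2, a relative of BMAL1, went from 8.44 ± 0.15 to 6.52 ± 0.04 and 5.19 ± 0.25 (DED against MA -1.33, SE 0.12, limma adjusted p = 3.98e-08). Its MA and DED means and the DED mean of BHLHE41 were under 8.31, so that the sizes of these differences are not settled.

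In DED against MA 2 of the 10 rose and 2 fell (BMAL2 and BHLHE41), beside 12.9% and 13% of all genes. RORA, the receptor that activates BMAL1 and NFIL3, ran from 10.44 to 10.77 in DED, from 9.18 to 9.49 in MA and from 8.49 to 9.05 in MSC, so that no groups overlapped. It rose by 0.55 in MA against MSC (SE 0.12, limma adjusted p = 0.00133) and by 1.25 in DED against MA (SE 0.12, adjusted p = 1.31e-07). NPAS2, which can replace CLOCK, ran from 11.56 to 11.68 in MSC, from 11.30 to 11.64 in MA and from 11.73 to 13.17 in DED, a rise of 0.91 from MA (SE 0.18, limma adjusted p = 0.000702) in which DED array 1 was lowest and array 3 highest.

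**Figure D4:**
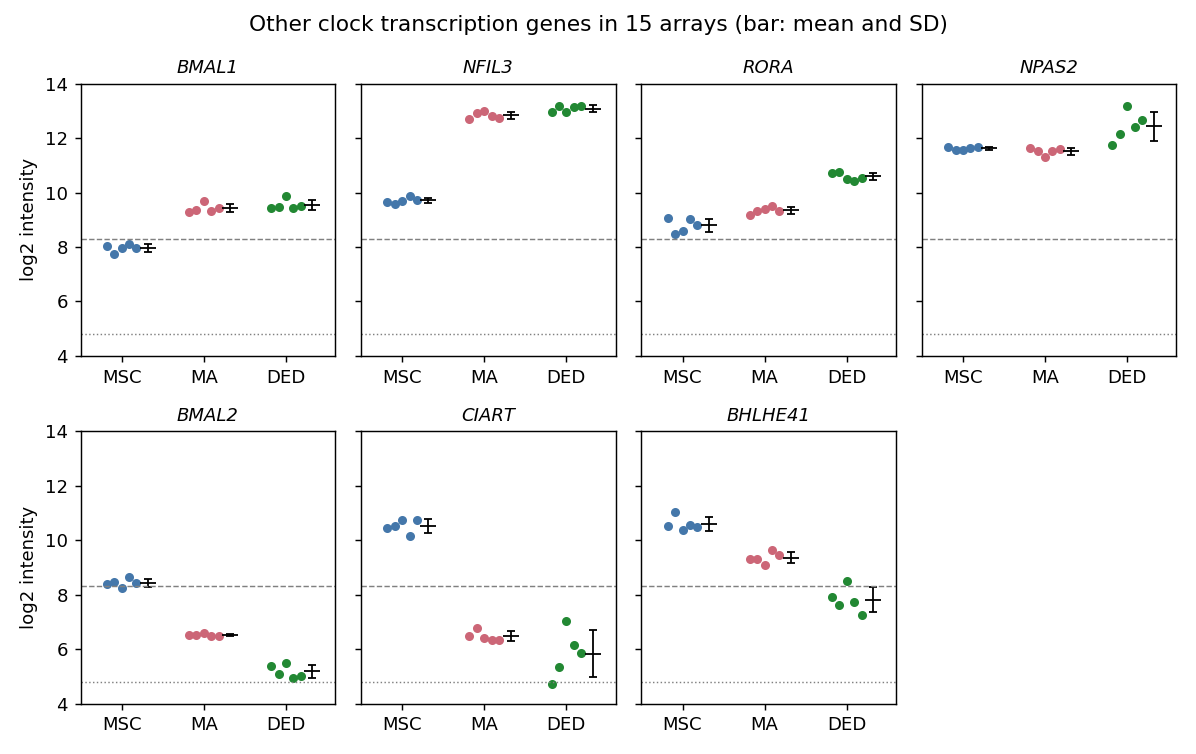
Log2 intensity of 7 clock transcription factor genes outside the 10 (vertical axis, the same for all panels) in the 5 arrays each of MSC, MA and DED, with mean and SD; dashed and dotted lines are the 95th percentile (8.31) and median (4.80) of the negative controls. BMAL1 and NFIL3 are higher in all MA and DED arrays than in any MSC array, and CIART, BHLHE41 and BMAL2 are lower.

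Of 17 listed enzymes and ligases that set the stability of clock proteins 15 were measured, with 3 rises and 4 falls in MA against MSC (median -0.03) and 4 rises and 1 fall in DED against MA (median 0.29), beside 33% and 25.9% of all genes called in either direction. GSK3B, a kinase of several clock proteins, rose in DED from 13.70 ± 0.10 to 14.47 ± 0.18 (0.77, SE 0.10, limma adjusted p = 9.78e-06), and CSNK2A1, a casein kinase 2 subunit, from 13.25 ± 0.09 to 13.79 ± 0.10 (0.54, adjusted p = 0.000311).

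Genes known as outputs of the clock rose in 9 of 11 measured cases in MA against MSC and fell in 1 (13 were listed, median 1.15), beside 15.4% and 17.6% of all genes. Of the 11, 5 had MSC means under 8.31, the background mark, and all 5 were among the rises. ELOVL3 and PPARGC1A were under it in MA too, so that the sizes of these rises are not settled. KLF9, a Kruppel-like factor, rose by 2.29 (SE 0.18, limma adjusted p = 3.98e-09) and WEE1, the kinase that holds back mitosis, by 2.11 (SE 0.17, adjusted p = 2.46e-09), while KLF10 fell by 0.97 (SE 0.13). Many of these genes also answer to other regulators. In DED against MA 2 rose and 2 fell, beside 12.9% and 13% of all genes. 1 of the falls was that of ELOVL3, whose group means all lay under 8.31, the background mark. NAMPT, the enzyme that makes NAD from nicotinamide, ran from 7.73 to 8.39 in MSC, from 8.24 to 9.24 in MA and from 10.18 to 10.62 in DED, a rise of 1.64 from MA (SE 0.17, limma adjusted p = 2.76e-07). CDKN1A, an inhibitor of cell division, rose by 0.84 (SE 0.20, adjusted p = 0.00328), and ALAS1, the entry enzyme of heme synthesis, fell by 0.78 (SE 0.11, adjusted p = 2.89e-05).

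Among genes that reset the clock, 1 rose and 2 fell of 10 measured (11 listed) in MA against MSC, and 4 rose and 1 fell in DED against MA, beside 33% and 25.9% of all genes called. The first share is near that of all genes. NR3C1, the glucocorticoid receptor, fell from 11.71 ± 0.14 in MSC to 10.92 ± 0.19 in MA (-0.79, SE 0.13, limma adjusted p = 4.74e-05). EGR1, an immediate early factor, rose by 1.93 in MA (SE 0.20, limma adjusted p = 2.16e-07) and fell by 1.19 in DED (SE 0.20, adjusted p = 0.000163). Its means in MSC (7.16) and DED (7.90) were under 8.31, the background mark, so that the sizes of both differences are not settled. CRTC3, a coactivator of CREB, rose in DED by 1.05 (SE 0.11, limma adjusted p = 5.19e-07). Of 11 measured glucocorticoid response genes 8 rose and 1 fell in MA against MSC, beside 15.4% and 17.6% of all genes. These genes had an array mean of 7.69 to 7.93 in MSC, 10.73 to 10.81 in MA and 10.38 to 10.74 in DED. Their part in the differences of the clock genes was not tested.

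Genes with the course most like that of the members that varied most were sought over all genes, by the root mean square difference over 15 arrays after each gene was centred on its mean. For BHLHE40 they were BST1 (0.34 log2 units; group means 10.52, 7.20 and 7.49 in MSC, MA and DED) and ADD2 (0.37). For NR1D2 they were CSRP2 (0.31; 13.28, 9.80 and 11.08) and HAS2 (0.32; 10.75, 7.69 and 8.39). For PER3 they were CNIH3 (0.30; 8.83, 6.48 and 6.52) and again HAS2 (0.34).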

How the data were processed

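The values used are log2 intensities of 15 single-colour arrays, deposited by the authors as 1 table. Per the submitters' processing notes they were made by RMA with Transcriptome Analysis Console. Such normalization removes a shift shared by all genes. The version and build are not stated there. Of 24351 probe sets 17709 carried 1 gene symbol, 0 carried several and the rest carried none or were controls. The probe set with the highest mean was kept for 20 genes with several. The 612 negative control probe sets (median 4.80, 95th percentile 8.31 over all values) mark background; the number of arrays limits the precision. The comparisons used limma 3.58.1 under R 4.3.3 (1 mean per group, 15 arrays, no covariates, no filter), with Benjamini-Hochberg adjustment over 17687 genes. The test was checked on simulated data. Promoter windows were searched with Python 3.11.15, and figures drawn with matplotlib 3.10.9. Named were all members, genes of the lists, and for each of the 3 members with the widest range of group means, the 2 genes most like it. The members and lists were chosen with earlier results of these data known. Of 75 genes in the clock lists 64 were measured. Alternatives were quantile normalization, a shift to 1 median, dim genes left out (under the 25th percentile), every probe set by itself, a robust fit with an intensity trend, weights per array, a fit on the 2 groups alone, a block for the replicate number, and leaving out each array in turn. A fit without DED arrays 1 and 3 was added after seeing the data.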

Additional observations from a re-analysis of the deposited data

Results flagged for a closer look

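In 6 of the 90 combinations of gene and group examined, the highest array stood far from the other arrays of its group (Dixon's test, critical value 0.71 for 5 arrays), where chance gives about 1 in 20. None concerned the 10 clock genes themselves. BMAL1 was 9.88 in DED array 3 and 9.42 to 9.50 in the other DED arrays, and CDKN1A was 12.25 in DED array 3 against 10.80 to 11.17. CIART was 6.79 in MA array 2 against 6.34 to 6.47. In MSC, BHLHE41 was 11.05 in array 2 against 10.39 to 10.56, THRA was 10.93 in array 2 against 10.62 to 10.70, and KLF9 was 9.17 in array 3 against 8.86 to 8.94.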

How the results depend on the processing

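The number of clock genes past the test stayed at 8 or 9 in MA against MSC, 4 to 6 in DED against MA and 6 or 7 in DED against MSC under every alternative run, beside 5394 to 6640, 4130 to 5188 and 5450 to 6751 genes or, in the highest of each, probe sets. DBP in MA against MSC passed with quantile normalization (0.37, limma adjusted p = 0.0412), with dim genes left out (0.0489), with array weights (0.0454) and with only the groups compared (0.0491). CLOCK in DED against MA passed with array weights (0.59, limma adjusted p = 0.0104) and without DED arrays 1 and 3 together (0.62, adjusted p = 0.00691). The sign of CRY2 in MA against MSC, which was not past the test, changed when 1 array was left out (-0.098 to 0.074). The same held for CRY1 minus CRY2 in DED against MA (-0.179 to 0.168 with 1 array left out, 0.125 without DED arrays 1 and 3 together). The ratio tests past the threshold numbered 7 of 12, and 6 to 8 with 1 array left out. Arrays of the same number did not deviate together (0 of 5 pairs with a correlation over 0.1 in each comparison), so the numbers were not taken as pairs. With the replicate number as a block 5663, 4440 and 5738 genes passed, DBP (adjusted p = 0.0469) and CLOCK (0.0293) passed in the comparisons named, and no other call on the members changed. For the ratios 0 of 12 passed under exact sign flips of paired arrays, whose smallest p is 0.0625. The cause of the other changes was not tested. PER2, CRY1, CRY2 and TEF had means under 8.31, the background mark, in every group. NR1D1 and PER3 had MA and DED means under it, NR1D2 its MA mean, and DBP its MSC and DED means. For all of these genes this limits what can be said of the size of the differences.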

Other observations

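Of 12 listed cofactors of the clock 8 were measured, of which 2 rose and 1 fell in MA against MSC and 0 rose and 1 fell in DED against MA (limma, adjusted p under 0.05), beside 33% and 25.9% of all genes called in either direction. The gene that fell both times was EZH2, a histone methyltransferase that is also high in dividing cells, which went from 11.66 ± 0.17 in MSC to 9.23 ± 0.43 in MA and 8.58 ± 0.23 in DED (SD, n = 5).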
